A study of Mus musculus with 8 samples.

Results

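Lysosomal genes were followed in T cells taken from xenografts that were being rejected or tolerated. The family comprised 38 mouse genes: 11 cathepsins, 19 other enzymes and proteins of the lysosomal lumen, and 8 proteins of the lysosomal membrane. A gene was measured where a probe set of the deposited table carried its symbol and no other, and where a gene had several such probe sets the one with the highest mean was used. That gave 36 of the 38 genes, out of 18820 genes measured in this way. The probe sets of Ctsb and Sgsh also carry the symbols of Fdft1 and Card14, so these 2 genes are not reported. Of the 36, 34 had a single probe set, and Arsb and Laptm4b had 2.

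Lysosomes are acidic compartments in which hydrolases degrade proteins, glycans and lipids that arrive by endocytosis, phagocytosis and autophagy. The soluble enzymes are made in the secretory pathway and sorted to lysosomes largely through a mannose 6-phosphate tag, while heavily glycosylated membrane proteins line the organelle. The transcription factor TFEB and its relatives bind an E-box in the promoters of many of these genes. Lysosomes are abundant in macrophages and kidney tubule cells, and the granules of cytotoxic T cells are a related organelle.

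The hosts were wildtype CD1 mice that carried grafts of tissues derived from human embryonic stem cells (hESC). CD3-positive cells were isolated from the grafts at day 30. Rejecting samples, 4 in number, came from untreated hosts, and the 4 tolerant samples came from hosts injected with anti-CD4, anti-CD8 and CD40L (the third agent as the design text writes it). The labels state neither the age of the mice nor whether each array stands for a separate mouse, so p-values here reflect no more than the scatter among samples, part or all of it possibly technical.

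Values are deposited RMA levels, taken to be on a log2 scale, and differences are tolerant minus rejecting on the same scale. Array medians of 0.47 to 0.52 are low for RMA output, and what further scaling the values may have had is not known. Levels of different genes are not compared, because probes differ in how brightly they report. Arrays numbered 1 and 2 carried much less signal than arrays numbered 3 and 4, in both groups. The share of genes above a background line was 2.52% to 5.57% on the former and 9.12% to 16.3% on the latter. That line is drawn on each array at the 99th percentile of the levels of its 1182 olfactory and vomeronasal receptor probe sets. It lay between 1.15 and 1.35 on arrays 1 and 2, and between 0.99 and 1.14 on arrays 3 and 4. The comparison is therefore given for each set of arrays apart. In the T cell list, 4 of 15 measured markers lay above the line on all 4 arrays numbered 3 and 4. Cd3e, which signals for the T cell receptor, was among them, while its partner Cd3d lay below the line on all 8 arrays.

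The family was chosen by measured values. Ctsd and Laptm4a were among the probe sets higher in tolerant samples on arrays 3 and 4 in an earlier analysis of these data, and the other lysosomal genes were gathered around them. All values of tolerant against rejecting samples on arrays 3 and 4, and over the 8 arrays, are for that reason descriptions and support nothing by themselves. Arrays 1 and 2 did not enter that choice.

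The measured values behind the choice did not include the promoter sequence. The members were gathered as lysosomal genes, though, a class in which the E-box is already known. A high share of it is therefore no independent support. RefSeq (build GRCm38.p6) gave promoters, 250 bases before to 50 bases after an annotated transcript start, for 32 of the 38 genes. The E-box CACGTG, which reads the same on both strands, occurred in 12 of these 32 genes, or 37.5%, against 8.09% of all 27025 genes with a promoter in the table. It was found in 4 of 9 cathepsins (Ctsa, Ctsd, Ctsf and Ctsl), 6 of 17 other luminal genes (Gaa, Gla, Glb1, Lgmn, Naglu and Sgsh) and 2 of 6 membrane genes (Lamp1 and Mcoln1). With the preceding T that TFEB sites often have, TCACGTG on either strand occurred in 10 of 32 genes, against 4.29% of all genes. The longer palindrome TCACGTGA, which contains both shorter motifs, occurred in 4 of 32 (Ctsa, Ctsd, Gla and Mcoln1), against 1.12%. With G before and C after it, this palindrome occurred in 0 of 32, against 0.370%. Other lysosomal lists held these motifs too. CACGTG occurred in 5 of 14 sorting genes (35.7%), 5 of 16 regulators (31.2%), 4 of 19 proton pump subunits (21.1%) and 4 of 20 autophagy genes. It occurred in 4 of 22 other membrane proteins, 3 of 18 other hydrolases, 0 of 9 other cathepsins and 0 of 9 cathepsin inhibitors. TCACGTGA occurred in 3 of 14 sorting genes, 3 of 19 proton pump subunits and 3 of 22 other membrane proteins. A match describes these letters only and does not show that a factor binds there.

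The promoters below are the 120 bases before the start, with the E-box in capitals, for genes that differ in how many matches they hold. Lamp1 has 4 matches in this stretch, Mcoln1 has 2, and Ctsd and Glb1 have 1 each. Laptm4a, Grn and Lamp2 have none in the whole window. All are printed 5′ to 3′ on the strand of the gene.
Ctsd (chr7:142387828-142387947, minus strand): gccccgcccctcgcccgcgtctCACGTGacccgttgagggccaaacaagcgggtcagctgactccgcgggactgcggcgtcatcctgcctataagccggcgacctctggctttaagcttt
Lamp1 (chr8:13159041-13159160, plus strand): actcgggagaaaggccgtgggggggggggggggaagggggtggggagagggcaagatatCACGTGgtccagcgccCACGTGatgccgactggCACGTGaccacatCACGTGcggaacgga
Mcoln1 (chr8:3500399-3500518, plus strand): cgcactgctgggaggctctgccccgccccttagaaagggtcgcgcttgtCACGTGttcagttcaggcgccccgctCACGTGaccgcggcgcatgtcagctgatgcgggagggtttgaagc
Glb1 (chr9:114400958-114401077, plus strand): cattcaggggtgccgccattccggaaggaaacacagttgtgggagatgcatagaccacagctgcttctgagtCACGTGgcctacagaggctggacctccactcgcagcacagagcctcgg
Laptm4a (chr12:8921187-8921306, plus strand): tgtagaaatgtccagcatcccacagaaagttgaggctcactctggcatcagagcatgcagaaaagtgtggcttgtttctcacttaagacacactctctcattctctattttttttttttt
Grn (chr11:102430387-102430506, plus strand): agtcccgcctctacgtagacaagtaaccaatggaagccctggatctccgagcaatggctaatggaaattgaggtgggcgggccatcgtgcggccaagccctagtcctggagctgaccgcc
Lamp2 (chrX:38456461-38456580, minus strand): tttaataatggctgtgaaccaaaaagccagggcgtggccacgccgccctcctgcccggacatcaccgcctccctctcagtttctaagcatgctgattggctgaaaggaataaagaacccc

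Ctsa and Lgmn each have 2 annotated starts, and their matches lie near the second. Lgmn has 1 match there, and Ctsa has 2, at positions -12 and 6, the latter after the start. The 30 bases around the match of Lgmn and the first match of Ctsa show the same core. Both have ctgt just before it, and the flanks differ beyond that.
Ctsa (chr2:164833749-164833778, plus strand): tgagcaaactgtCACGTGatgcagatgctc
Lgmn (chr12:102439124-102439153, minus strand): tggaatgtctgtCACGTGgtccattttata

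In all, 19 matches were found, and 13 of them began within 120 bases before a start, in 9 of the 12 genes. The match of Ctsd in the printed stretch begins at position -98 from the start, and its other match at -245.

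**Figure D1:**
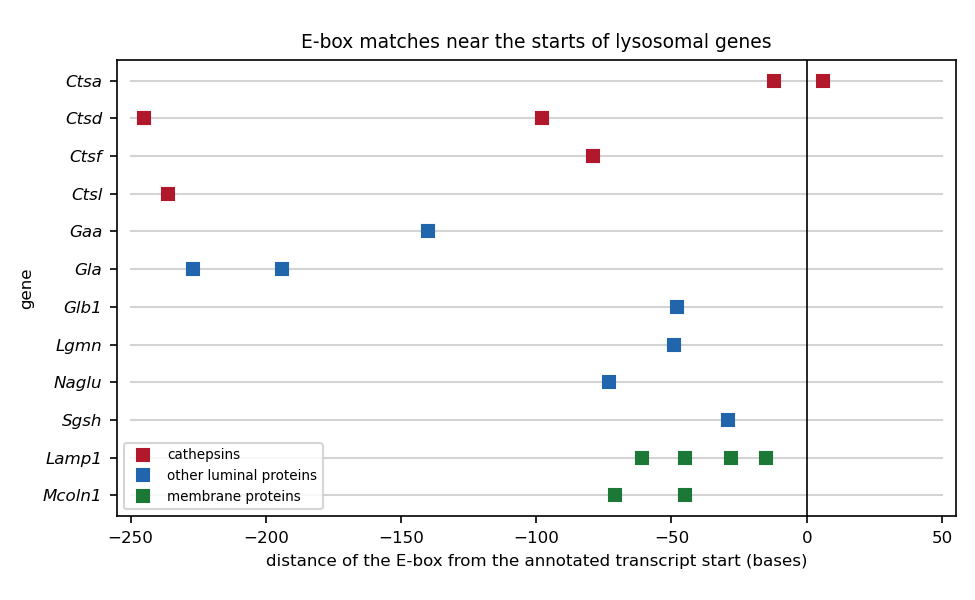
Position of each CACGTG match (squares) relative to the annotated transcript start (vertical line at 0), in bases, for the 12 lysosomal genes that hold one; grey lines span the window from 250 bases before to 50 bases after the start. Of the 19 matches, 13 begin within 120 bases before the start, and those of Lamp1 lie closest together.

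On arrays 3 and 4 9 of the lysosomal genes were more than 1 log2 unit higher in the tolerant samples, and many of the others lay near background. Of the 36 genes, 5 lay above the background line on all 4 of these arrays (Ctsd, Psap, Npc2, Lamp1 and Laptm5), 19 on 1 to 3 of them and 12 on 0. Both tolerant arrays lay above the line for 15 genes and both rejecting arrays for 5. By array, 19 and 18 genes were above the line on tolerant arrays 3 and 4, and 11 and 6 on rejecting arrays 3 and 4. These were 52.8% and 50% of members on the tolerant arrays, against 16.3% and 15.9% of all genes. On the rejecting arrays they were 30.6% and 16.7%, against 14.25% and 9.12%. On arrays 1 and 2 the number above the line was 1 or 2 of the 36 on each array, and 30 genes were above it on 0 of the 4. There the members' share, 2.78% to 5.56%, was close to the 2.52% to 5.57% of all genes.

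**Figure D2:**
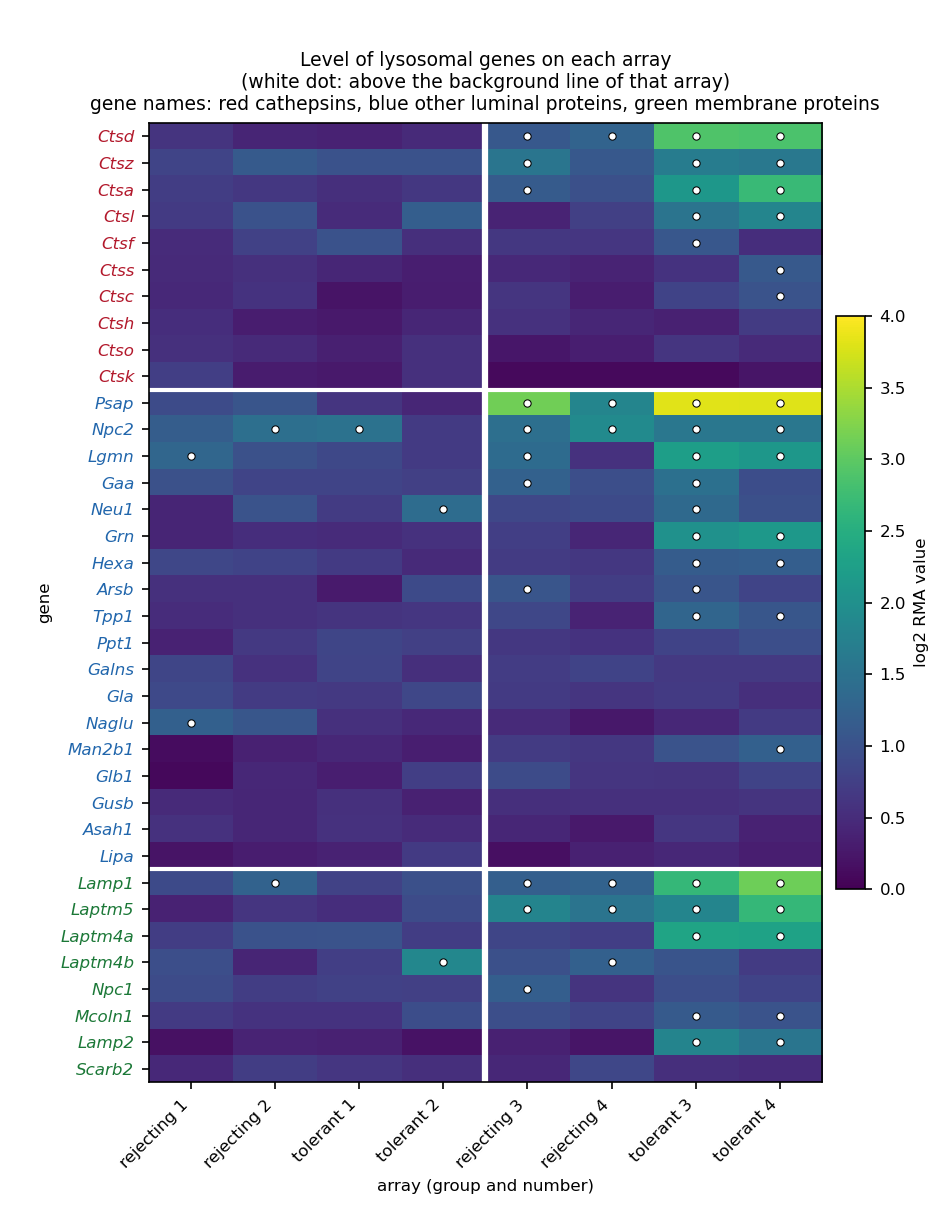
Log2 RMA level (colour) of 36 lysosomal genes (rows, by class) on the 8 arrays (columns), with a white dot where the level is above that array's background line. Bright cells and dots are concentrated on tolerant arrays 3 and 4, where 19 and 18 genes are above the line, and are few on the 4 arrays numbered 1 and 2.

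Among the cathepsins, Ctsd, the aspartic protease cathepsin D, read 2.90 and 2.87 on tolerant arrays 3 and 4 and 1.10 and 1.27 on rejecting arrays 3 and 4. On arrays 1 and 2 its rejecting values were 0.60 and 0.42, and its tolerant values 0.38 and 0.48. The groups thus stood apart on arrays 3 and 4 and lay together, below the line, on arrays 1 and 2. The difference on arrays 3 and 4 was 1.70 with a standard error (SE) of 0.11, a 3.26-fold difference if taken at face value.

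Ctsa, a serine carboxypeptidase that also protects beta-galactosidase and neuraminidase, read 2.12 and 2.71 in tolerant against 1.15 and 0.98 in rejecting samples on arrays 3 and 4. Ctsl, a cysteine protease, read 1.53 and 1.81 against 0.39 and 0.76. These genes were higher on both tolerant arrays than on either rejecting array, by 1.35 (SE 0.21) and 1.10 (SE 0.17). Both rejecting values of Ctsl and that of Ctsa on array 4 lay below the line, so the sizes of these differences are not exact. On arrays 1 and 2 the 2 genes lay between 0.49 and 1.20, with tolerant and rejecting samples overlapping.

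The other 7 cathepsins measured had smaller differences, which lay on arrays 3 and 4 between 0.03 and 0.43. Ctsc, which activates granule proteases of lymphocytes and myeloid cells, had 0.80 and 1.02 in tolerant against 0.62 and 0.33 in rejecting samples. Ctss, the protease that trims the invariant chain in antigen-presenting cells, had 0.59 and 1.11 against 0.46 and 0.40. For both, only tolerant array 4 was above the line. Ctsf, a cysteine protease, was above it on tolerant array 3 alone, at 1.09, with 0.52 on tolerant array 4 and 0.65 and 0.64 in rejecting samples. Ctsh, Ctso and Ctsk, the last known for its role in osteoclasts, were above it on 0 of the 8 arrays. Over the 10 cathepsins the median difference on arrays 3 and 4 was 0.37, with 10 of 10 positive, and on arrays 1 and 2 it was -0.07, with 2 of 10 positive.

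Of the other luminal proteins, Psap, the precursor of the saposins that help hydrolases degrade sphingolipids, read 3.82 and 3.81 on tolerant arrays 3 and 4. It read 3.13 and 1.82 on rejecting arrays 3 and 4, and 0.43 to 1.05 on the 4 arrays numbered 1 and 2. Its difference on arrays 3 and 4 was 1.34 with an SE of 0.41, since the rejecting arrays differed from each other by nearly as much. It was 1.99 without rejecting replicate 3 and 0.69 without rejecting replicate 4. Npc2, a cholesterol carrier that works with Npc1, was above the line on the same 4 arrays but did not separate the groups, with 1.58 and 1.59 in tolerant against 1.46 and 1.92 in rejecting samples. Its rejecting arrays 1 and 2 had 1.17 and 1.47, and its tolerant ones 1.5 and 0.69.

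Grn, the precursor of progranulin-derived granulins, read 2.03 and 2.13 in tolerant against 0.74 and 0.43 in rejecting samples on arrays 3 and 4. Lgmn, the asparaginyl endopeptidase legumain that processes cathepsins, read 2.24 and 2.12 against 1.39 and 0.57. The 2 genes had differences of 1.49 (SE 0.14) and 1.20 (SE 0.27), neither exact in size, since both rejecting values of Grn and that of Lgmn on array 4 lay below the line. Without rejecting replicate 4 the difference of Lgmn was 0.79. Hexa, a subunit of beta-hexosaminidase, had a smaller one of 0.51 (SE 0.10), with 1.17 and 1.19 against 0.70 and 0.64. Both rejecting values of Hexa also lay below the line, so this size is not exact either. The remaining 13 luminal proteins had differences between -0.09 and 0.56. Of those, Ppt1, Galns, Gla, Naglu, Glb1, Gusb, Asah1 and Lipa, all hydrolases, were above the line on 0 of the 4 arrays. The median over the 18 luminal proteins was 0.17 on arrays 3 and 4 and 0.02 on arrays 1 and 2.

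Of the membrane proteins, Lamp1, a major glycoprotein of the lysosomal membrane that also appears on the surface of degranulating T cells, read 2.67 and 3.11 on tolerant arrays 3 and 4. It read 1.21 and 1.26 on rejecting arrays 3 and 4. Arrays 1 and 2 gave 0.90 and 1.26 in rejecting and 0.79 and 0.97 in tolerant hosts. Lamp2, its relative with a role in chaperone-mediated autophagy, read 1.80 and 1.55 against 0.37 and 0.23 on arrays 3 and 4, and 0.18 to 0.40 on arrays 1 and 2. The 2 differences were 1.65 (SE 0.17) and 1.38 (SE 0.13), so both Lamp genes were high on tolerant arrays 3 and 4 and low on the other 6 arrays, those of Lamp2 being below the line, so that the size of its difference is not exact.

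The Laptm genes encode lysosomal transmembrane proteins and did not behave alike. Laptm4a read 2.33 and 2.30 on tolerant arrays 3 and 4 against 0.83 and 0.75 on rejecting arrays 3 and 4. Arrays 1 and 2 gave 0.73 and 1.01 in rejecting and 1.02 and 0.73 in tolerant hosts. Its difference on arrays 3 and 4 was 1.53 (SE 0.10), and since both rejecting values lay below the line, that size is not exact. Laptm5, which is expressed in blood cells and promotes degradation of the T cell receptor, read 1.82 and 2.67 in tolerant against 1.81 and 1.54 in rejecting samples. Tolerant array 4 alone stood apart, and the difference was 0.57 (SE 0.29). With tolerant replicate 4 left out it was 0.15, and with tolerant replicate 3 left out 0.99. Arrays 1 and 2 gave 0.39 and 0.61 in rejecting and 0.53 and 0.92 in tolerant hosts, all below the line. Laptm4b had a difference of -0.23 (SE 0.17) by its brighter probe set. That probe set read 1.85 on tolerant array 2, where the other read 0.54. On arrays 3 and 4 the other probe set read 0.92 and 0.82 in tolerant against 0.78 and 0.56 in rejecting samples, so the probe sets disagreed in direction there, and their mean gave a difference of -0.02. Mcoln1, a calcium channel, Npc1, a cholesterol transporter, and Scarb2, the receptor that carries beta-glucocerebrosidase, had differences between -0.14 and 0.19. The median over the 8 membrane proteins was 0.38 on arrays 3 and 4 and 0.00 on arrays 1 and 2.

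**Figure D3:**
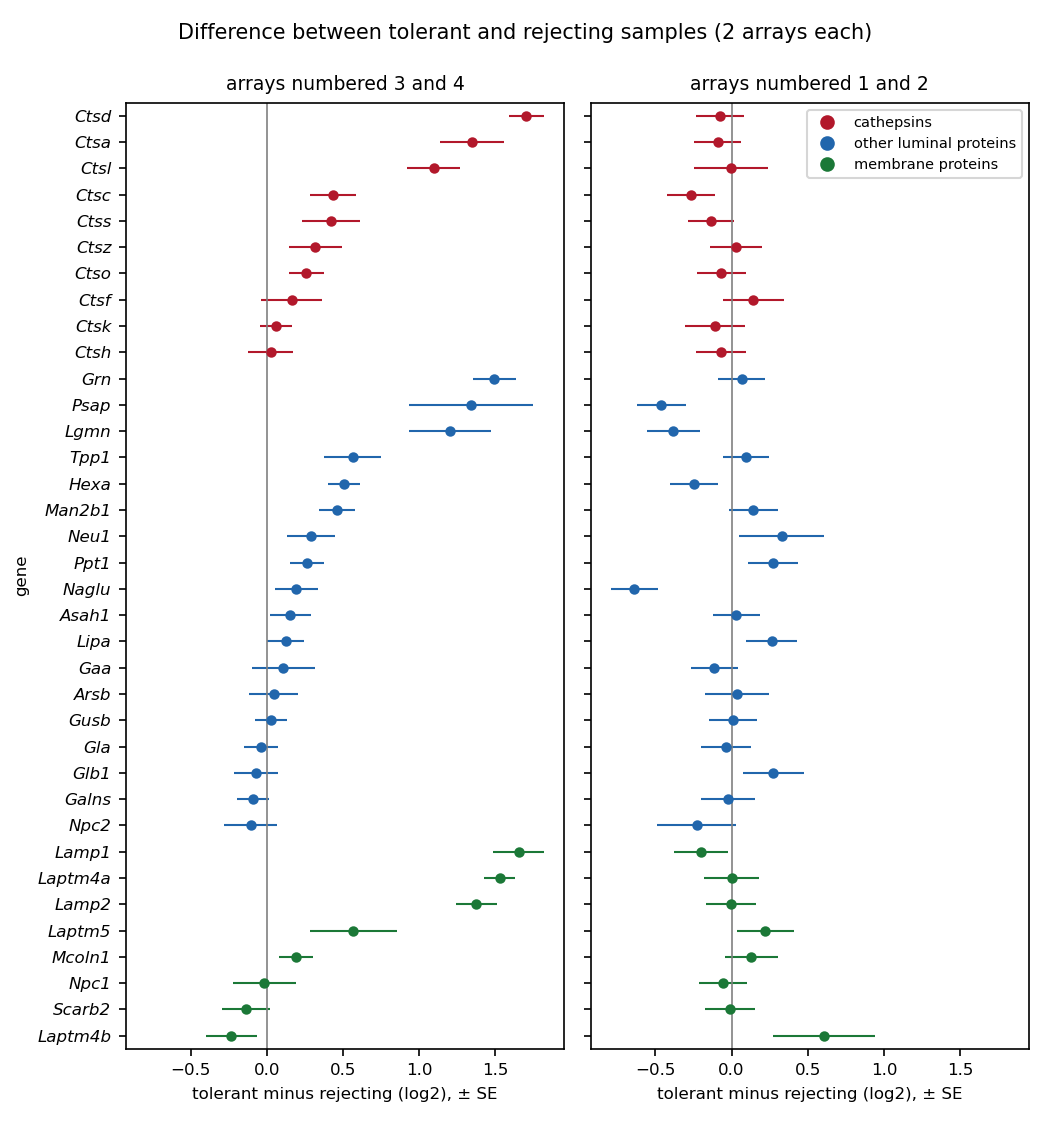
Tolerant minus rejecting difference (log2) with its standard error from limma for each of 36 lysosomal genes, on arrays 3 and 4 (left) and arrays 1 and 2 (right), 2 arrays per group in each panel. On the left 9 genes exceed 1, from Ctsl at 1.10 to Ctsd at 1.70, and on the right all lie between -0.64 and 0.61.

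Over all 36 genes the median difference on arrays 3 and 4 was 0.26, against -0.01 for all 21218 probe sets tested. It was under -1 in 0 genes (0.123% of probe sets) and exceeded 1 in 9 (Ctsd, Ctsa, Ctsl, Psap, Grn, Lgmn, Lamp1, Laptm4a and Lamp2), as it did in 0.528% of probe sets. Of these, Psap and Lgmn were under 1 without rejecting replicate 4, and Ctsl was at 0.91 without rejecting replicate 3 and 0.95 without tolerant replicate 4. Both tolerant arrays were above both rejecting arrays in 21 genes, against 19.3% of probe sets, and below both in 1 gene, Galns, against 20.0%. Among the 21, Ctso, Ctsk and Ppt1 lay below the background line on all these arrays, as did Galns. Laptm5 read 1.82 on tolerant against 1.81 on rejecting array 3. The limma fit over all probe sets, with Benjamini-Hochberg adjustment, called 2 of the 36, Ctsd and Laptm4a, and 0.0518% of probe sets (0.0471% as higher). At an unadjusted p under 0.05 there were 13, against 7.21%. Ctsd and Laptm4a are the 2 genes that led to the family, so the count carries no support. Both calls were lost with the replicate number as a block (limma adjusted p = 0.0672 for Ctsd and 0.0693 for Laptm4a), and without tolerant replicate 3, without tolerant replicate 4 or without rejecting replicate 3. Without rejecting replicate 4, Ctsd was called and Laptm4a was not. With trend and robust moderation Laptm4a, Grn and Lamp2 were called and Ctsd was not (limma adjusted p = 0.0915). The difference of Ctsd stayed between 1.62 and 1.79 and that of Laptm4a between 1.49 and 1.57 when any of these arrays was left out.

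The differences were also set out by E-box. The 11 measured genes with a match had a median difference of 0.19 on arrays 3 and 4, and 5 of them exceeded 1. The 20 without a match had a median of 0.37, and 4 exceeded 1. The 5 genes with no promoter in the table ranged from -0.23 to 0.15.

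On arrays 1 and 2, which did not lead to the family, limma called 0 of the 36 genes and 0 of the 21218 probe sets (percent called 0). At an unadjusted p under 0.05 there were 2, Naglu and Psap, against 5.15% of probe sets. Naglu, an enzyme of heparan sulphate degradation, had rejecting values of 1.22 and 1.07 against tolerant values of 0.56 and 0.46, with a difference of -0.64 (SE 0.16; limma adjusted p = 0.936). Only rejecting array 1 was above the line. For Psap the rejecting values were 0.91 and 1.05 and the tolerant values 0.61 and 0.43, with a difference of -0.46 (SE 0.16; limma adjusted p = 0.936). The 9 genes over 1 on arrays 3 and 4 had differences from -0.46 to 0.07 here, with SEs of 0.15 to 0.24. Both tolerant arrays were above both rejecting arrays in 3 genes (17.2% of probe sets) and below both in 6 (17.1%). With 30 of 36 genes below the line on all 4 of these arrays, the values do not show that expression was the same in the groups.

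Over all 8 arrays limma called 0 of the 36 genes (percent called 0), and 1 had an unadjusted p under 0.05, against 2.89% of probe sets. That gene was Ppt1, a thioesterase that removes palmitate from proteins, named after its values were seen. Its rejecting values ran from 0.38 to 0.66 and its tolerant values from 0.76 to 0.96, a difference of 0.27 (SE 0.09; limma adjusted p = 1). It was the 1 gene of the 36 whose groups did not overlap over the 8 arrays, against 1.09% of probe sets with higher and 1.13% with lower tolerant values, and each of its values lay below the background line.

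The 2 sets of arrays were compared within limma, with the group as a covariate. Psap, Laptm5, Ctsd, Ctsa, Man2b1 and Ctsz were higher on arrays 3 and 4, so 6 of 36 genes passed, against 6.40% of probe sets in that direction, and 0 of 36 were lower, against 1.05%. Tolerant arrays 3 and 4, on which Ctsd was picked out, are part of this contrast, so its call is no independent evidence. Psap was higher by 2.40 (SE 0.36; limma adjusted p = 0.00336) and Laptm5 by 1.35 (SE 0.18; adjusted p = 0.00191). Man2b1, a lysosomal mannosidase, was higher by 0.57 (SE 0.11; adjusted p = 0.0108) although it was above the line on 1 array only, and Ctsz, a carboxypeptidase, by 0.49 (SE 0.13; adjusted p = 0.0470). Psap, Laptm5 and Ctsd passed under each of 15 settings, and Man2b1 under each of the 14 in which it was tested. Ctsa passed under 9 and Ctsz under 6. The limma interaction test compared the tolerant minus rejecting difference itself between the sets. It was larger on arrays 3 and 4 than on arrays 1 and 2 in 1 of 36 genes, Ctsd (1.78, SE 0.19). Of all 21218 probe sets 0.0566% were called in either direction, 10 as larger and 2 as smaller. The call of Ctsd was lost with the replicate number as a block, and arrays 3 and 4 enter it too.

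The rest of the lysosomal system was followed through lists that the family does not include. On arrays 3 and 4 limma called 0 of their genes, and unadjusted p-values under 0.05 ranged from 0 of 9 in the remaining cathepsins to 7 of 24 in autophagy, against 7.21% of all probe sets. Of 24 other lysosomal membrane proteins 17 were higher in tolerant samples, with a median of 0.07. Cd68, a macrophage-rich relative of the Lamp proteins, had 1.45 and 2.14 against 0.88 and 0.60, a difference of 1.05 (SE 0.25; limma adjusted p = 0.407). Of 17 other hydrolases and their cofactors 10 were higher, with a median of 0.02, and Smpd1, acid sphingomyelinase, had a difference of 0.80 and Gm2a, the activator of ganglioside breakdown, one of 0.78. Of 23 measured subunits of the proton pump that acidifies lysosomes 17 were higher, with a median of 0.16 and 0.89 for Atp6v0e. Of 17 sorting genes 10 were higher, with a median of 0.12 and 0.87 for Ap3d1, an adaptor subunit of lysosomal trafficking. Both rejecting values of Cd68, Smpd1, Atp6v0e and Ap3d1 and that of Gm2a on array 4 lay below the line. The sizes of these differences are therefore not exact.

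Autophagy genes, 18 of 24 of them higher, had a median of 0.09, with 1.00 for Gabarap and 0.93 for Gabarapl1, which build autophagosomes, and 0.78 for the cargo receptor Sqstm1. Both rejecting values of Sqstm1 lay below the line, so the size of its difference is not exact. Regulators including TFEB and the mTORC1 anchors had a median of 0.07, with 12 of 18 higher and a highest difference of 0.46. Cathepsin inhibitors had 5 of 9 higher and a median of 0.02. Cst3, the secreted inhibitor cystatin C, read 3.6 and 3.35 in tolerant against 3.42 and 2.36 in rejecting samples on arrays 3 and 4. The remaining cathepsins, most of them known from placenta or granulocytes, had a median of 0.02 with 5 of 9 higher. On arrays 1 and 2 the medians of these 8 lists lay between -0.04 and 0.10.

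Markers of other cell types were measured on the same arrays. On arrays 3 and 4 limma called 2 of them, both higher and both among the 17 kidney tubule genes. Of all probe sets 0.0518% were called (0.0471% as higher). The lists were chosen with earlier results of these data known, so these calls are no independent evidence. In the macrophage list, 13 of 21 genes were higher in tolerant samples on arrays 3 and 4. The median difference was 0.09. The summed level of the list, on a linear scale, was 30.9 to 43.8 on the rejecting and 53.5 to 57.6 on the tolerant arrays. Such sums are led by the brightest genes and do not show that a whole list rose. C1qa, another complement component, differed less, with 1.06 and 1.98 against 1.30 and 0.68. Lyz2, lysozyme, read 3.30 and 3.14 against 1.41 and 0.23, and C1qb, a complement component made by macrophages, 3.35 and 3.70 against 2.13 and 0.92. Csf1r and Adgre1, receptors that define macrophages, did not follow, with 0.91 and 0.96 against 1.01 and 0.58 for the former and all 8 values below the line for the latter. In the list, 13 of 21 genes were above the line on 0 of the 4 arrays.

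All 14 fibroblast markers were higher, by 0.007 to 3.21. Their summed level was 37.8 to 46.1 on rejecting and 90.2 to 109 on tolerant arrays. Of the kidney tubule markers 15 of 17 were higher, with 30.3 to 31.6 against 73.1 to 158. The endothelial list had 8 of 12 higher, with 19.1 to 20.4 against 23.6 to 25.1. Above the line on 0 of the 4 arrays were 6 of the 14 fibroblast, 6 of the 17 kidney tubule and 6 of the 12 endothelial genes. For such genes the sign of a difference says little. The fibroblast, kidney tubule and endothelial lists had median differences of 0.52, 0.45 and 0.175. The summed level of the 36 lysosomal genes was 63.2 to 72.4 on rejecting and 106 to 110 on tolerant arrays. The T cell list stood at 31.0 to 33.4 against 35 to 49.1, with Cd3e at 2.75 and 3.82 against 1.51 and 2.36 and Cd2, an adhesion receptor of T cells, at 0.83 and 1.23 against 0.99 and 0.99. The T cell list had a median of 0.07 and the osteoclast list one of 0.05. The lists are not fully separate. The kidney tubule list shares a gene with the proton pump list, and the T cell list shares one with the fibroblast list. The osteoclast list shares genes with the lysosomal lists, Ctsk of the family among them. Neutrophil, B cell and dendritic cell lists had medians of -0.11, -0.10 and -0.04. The part of all these markers in the lysosomal differences was not tested. In bulk samples, a change in the number of cells of a type and a change in RNA per cell cannot be told apart.

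**Figure D4:**
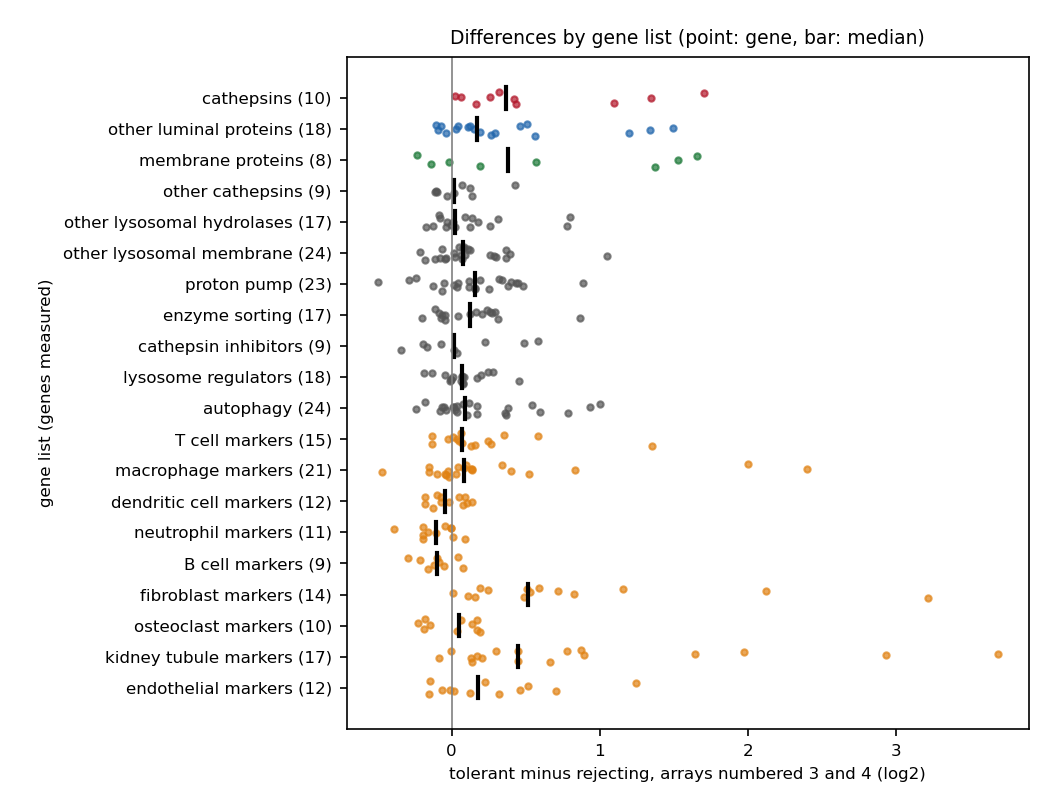
Tolerant minus rejecting difference on arrays 3 and 4 (log2) for each gene (points) of the lysosomal classes (coloured), other lysosomal lists (grey) and cell type markers (orange), with the list's median as a black bar. The highest medians among the lysosomal classes are 0.38 for membrane proteins and 0.37 for cathepsins, and those of the fibroblast and kidney tubule lists are 0.52 and 0.45.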

How the data were processed

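Total RNA of CD3-positive cells was labelled with biotin and hybridised to 8 whole-transcript arrays, 4 per group. The deposited log2 values, 35556 probe sets by 8 arrays, were made by the authors with Affymetrix Expression Console and RMA (background correction, quantile normalization, probe set summary), per the submitters' processing notes. No software version is stated there. Base 2 was inferred for the logarithm from array maxima of up to 12.7, while the low array medians of 0.47 to 0.52 leave the scale uncertain. RMA equalises distributions over arrays of unequal signal, which can compress differences. The table holds no detection calls, and the number of arrays limits the precision.

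The platform annotation gave 21218 probe sets with 1 symbol, 1881 with several and 12457 with none. Differences were tested with limma 3.58.1 in R 4.3.3 (lmFit, eBayes, 2-sided, Benjamini-Hochberg over the 21218 probe sets, threshold 0.05), tested on simulated data first. Plots used Python 3.11.15 and matplotlib 3.10.9. Members and lists were chosen with earlier results of these data known.

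All members are accounted for. Ctsd, Laptm4a and the members that exceed the line on each of arrays 3 and 4 in both groups have their value on every array printed. Single values are given for up to 3 more per class with the smallest unadjusted p on either set. Up to 3 genes of each other lysosomal list, by the same p, and Cd3e, Cd3d, Cd2, Lyz2, C1qa, C1qb, Csf1r and Adgre1 could be named. Ppt1, Man2b1 and Ctsz were singled out after their values were seen.

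Array numbers were checked for pairing. Over the probe sets, the deviations of 2 arrays with the same number from their own group's mean had correlations of 0.499, 0.507, 0.410 and 0.599. As each exceeds 0.1, the number was used as a block in an alternative fit, from the data and not the labels. The main fits had no block. These correlations also hold the difference between the sets of arrays, which both groups share. Within arrays 1 and 2 and within arrays 3 and 4 the correlation was 0.0206 and 0.00508. Pairing by number within a set was therefore not seen. Alternatives were the block, other normalizations, filters, moderation, probe set choices and leaving out each array.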

Additional observations from a re-analysis of the deposited data

Results flagged for a closer look

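Npc2 on the tolerant arrays had 1 value, 0.69 on array 2, far from the other 3, which lay between 1.5 and 1.59. Lamp1 on the rejecting arrays had 1 value, 0.90 on array 1, apart from the other 3 between 1.21 and 1.26. Of 72 sets of 4 values examined, these 2 had such a gap, and chance alone gives about 1 in 20.

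The tolerant minus rejecting difference of Ctsd was larger on arrays 3 and 4 than on arrays 1 and 2 by 1.78 (SE 0.19). Its limma interaction adjusted p was 0.0163, and 0.0566% of probe sets were called in either direction. Both tolerant arrays were above both rejecting arrays on arrays 3 and 4, and the groups overlapped, below the background line, on arrays 1 and 2. The call was lost under several alternative settings. Arrays 3 and 4 led to the choice of Ctsd, so this is no independent evidence.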

How the results depend on the processing

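Members called on arrays 3 and 4 numbered 2 as reported. The number was 0 with the replicate block, with all probe sets of the table and with the filter on dim probe sets, 5 with the mean of the probe sets of a gene and 6 with 4 cell means over all 8 arrays. With trend and robust moderation it was 3, without Ctsd. It was 0 to 1 when 1 array was left out. For the difference between the sets of arrays the number was 1 as reported. It was 0 with the replicate block, all probe sets, renewed quantile normalization or trend and robust moderation, 5 with the mean of the probe sets, and 0 to 4 without 1 array. The count was 0 on arrays 1 and 2 and over all 8 arrays in every setting run, the block included, which changed no other call. Between sets it was 6 as reported and 4 to 9 without 1 array. Except where the construction shows it, the cause was not tested.

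Filtered to probe sets above the line on at least 2 arrays, the median over the members that passed was 1.10 on arrays 3 and 4 (17 members), -0.228 on arrays 1 and 2 (1 member), and 0.395 over all 8 arrays, 0.488 between sets and 0.751 for the difference between the sets (19 members each). Members that passed only through the tolerant arrays had to differ, so these medians are no support. Renewed quantile normalization gave 0.175 for the last of these, against 0.255. Without 1 array, the medians ran from 0.228 to 0.303 on arrays 3 and 4, from -0.0407 to 0.0143 on arrays 1 and 2, from 0.0724 to 0.215 over all 8, from 0.196 to 0.317 between sets and from 0.191 to 0.335 for the difference between the sets. With the line at the 95th percentile, 14 members in place of 5 lay above it on all 4 arrays numbered 3 and 4.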
